A study of Arabidopsis thaliana with 12 samples.

Results

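8 genes of folate one-carbon metabolism and of serine hydroxymethyltransferase (SHMT) outside the mitochondrial isoforms were followed in leaves of Arabidopsis thaliana wild type (WT) and of the bou-2 mutant. They belong to a fixed set of 10 genes, chosen by locus among the 33326 genes in the table by their annotated function, with no threshold on a measured value. The 8 are formate dehydrogenase (FDH), formyl-tetrahydrofolate synthetase (THFS), formyl-tetrahydrofolate cycloligase (5-FCL), both formyl-tetrahydrofolate deformylases (PURU1 and PURU2), FOLD4, SHMT3 and SHMT4. The groups were WT (Col-0) at day, bou-2 at day, WT at night and bou-2 at night, with 3 libraries each and 12 in all. bou-2 carries a T-DNA in the BOU gene (AT5G46800) in the Col-0 background and is a single insertion line. BOU is a mitochondrial carrier protein that leaves need for full glycine decarboxylase activity. All plants, WT included, had grown for 35 days at 3000 ppm CO2 in 12 h light and 12 h dark and had spent the last 24 h at ambient CO2. By the design text, the night samples were taken 2 h before and the day samples 2 h after light onset. The study's methods instead place the day harvest only minutes after light onset and the night harvest longer before it. How long the day plants had been in the light is therefore uncertain. The titles of the day samples place them at the beginning of the day while their source and time fields say end of day, so "day" is used here as the titles have it.

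Tetrahydrofolate (THF) carries single carbon units between amino acid, nucleotide and methyl group metabolism. In photorespiring leaves, glycine decarboxylase loads THF to methylene-THF, mitochondrial SHMT uses that methylene-THF to make serine from glycine, and THFS loads THF with formate. FOLD enzymes interconvert methylene-THF and formyl-THF, PURU takes formyl-THF back to free formate and THF, and FDH oxidises formate to CO2.

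Leaf identity was checked with marker genes. The 4 mesophyll markers RBCS1A, RCA, CA1 and LHCB1.3 summed to 40652 to 53056 TPM (kallisto's transcript abundance, scaled for transcript length and library size) in WT at day and to 23196 to 28137 TPM in bou-2 at day, and all 4 were above 1 TPM. At night the sums were 46297 to 47219 TPM in WT and 27342 to 29453 TPM in bou-2. The summed level was therefore lower in every bou-2 library, although RCA alone overlapped between the genotypes at day, and the part of these markers in the results below was not tested. The 5 flower markers and the 5 root markers summed to at most 1.99 TPM in any library. The 4 vascular markers summed to 77.2 to 191 TPM, with overlapping ranges between the genotypes at each time. BOU itself fell from 180 ± 46.3 to 80.5 ± 0.27 TPM at day and from 163 ± 11.4 to 65.9 ± 0.96 TPM at night (SD, n = 3). Estimated counts per library summed to between 15911356 and 33046562, and the 3 WT day libraries were the least alike, with a lowest Spearman correlation of 0.958 across the transcripts tested. In bulk leaf RNA, fewer cells of a type and less RNA per cell cannot be told apart.

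The deposited table assigns reads to transcripts, so the stretches that paralogues share decide how well they can be separated. The longest runs of bases common to the transcripts of a pair are shown because the bases of a read that fall in them match both genes. Both are shorter than the reads. They were read from the RefSeq genome (TAIR10.1), lie inside coding exons and are printed 5′ to 3′ on the strand of the first gene of each pair. They are 51 bases for FOLD4 and FOLD3 at chr4:259290-259340 (minus strand) and 39 bases for SHMT4 and SHMT5 at chr4:8048211-8048249 (minus strand).
FOLD4 and FOLD3: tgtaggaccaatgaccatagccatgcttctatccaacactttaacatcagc
SHMT4 and SHMT5: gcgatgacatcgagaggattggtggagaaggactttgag
SHMT3 and SHMT4, which encode the same kind of enzyme, shared no run longer than 16 bases, and PURU1 and PURU2 none longer than 30 bases. In terms of stretches of 31 bases, FDH, PURU1 and SHMT3 shared 0% of theirs with any other locus, SHMT4 0.868%, FOLD4 2.95%, 5-FCL 8.11%, THFS 10.4% and PURU2 16.2%. THFS shared stretches with AT1G50490, a neighbour on the opposite strand that overlaps it, and with loci on chromosome 2. Much of the sharing of 5-FCL and PURU2 was likewise with an overlapping neighbour on the opposite strand. The library kit is not stranded, so reads in the overlaps of THFS, 5-FCL and PURU2 cannot be told apart.

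Of the 8 genes, 3 rose in bou-2 at day (FDH, FOLD4 and SHMT3), 1 fell (PURU1) and 4 did not pass the test (THFS, 5-FCL, PURU2 and SHMT4). A gene was called at a Benjamini-Hochberg (BH) adjusted p under 0.05 in edgeR's quasi-likelihood test. Over all 20458 genes tested, 14.8% were called higher and 12.8% lower at day, and the counts among the 8 genes stand beside those shares as a description. At night the same 3 genes rose, PURU1 and SHMT4 fell and 3 did not pass the test, beside 14.8 and 12.2% of all genes in those directions. The median log2 fold change of the 8 genes was -0.16 at day against -0.04 over all genes, and 0.0051 at night against 0.02. Counted by TPM ranges that did not overlap, 3 of the genes were higher and 2 lower (PURU1 and PURU2) at day, where 24.5% and 12.9% of all genes were. At night 3 were higher and 2 lower (PURU1 and SHMT4), where 37.7% and 19.2% of all genes were. The 3 higher genes were called at both times in each of the 21 alternative analyses. The lower calls were less stable. At day 0 genes were called lower when only the 6 day libraries were fitted and 0 without any one of WT day replicate 3, bou-2 day replicates 2 and 3, WT night replicates 1 and 2 and bou-2 night replicates 1 and 2. Without WT day replicate 2, 3 genes were called lower. At night 1 gene was called lower without WT night replicate 1, WT night replicate 2 or any one of bou-2 night replicates 1, 2 and 3.

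**Figure D1:**
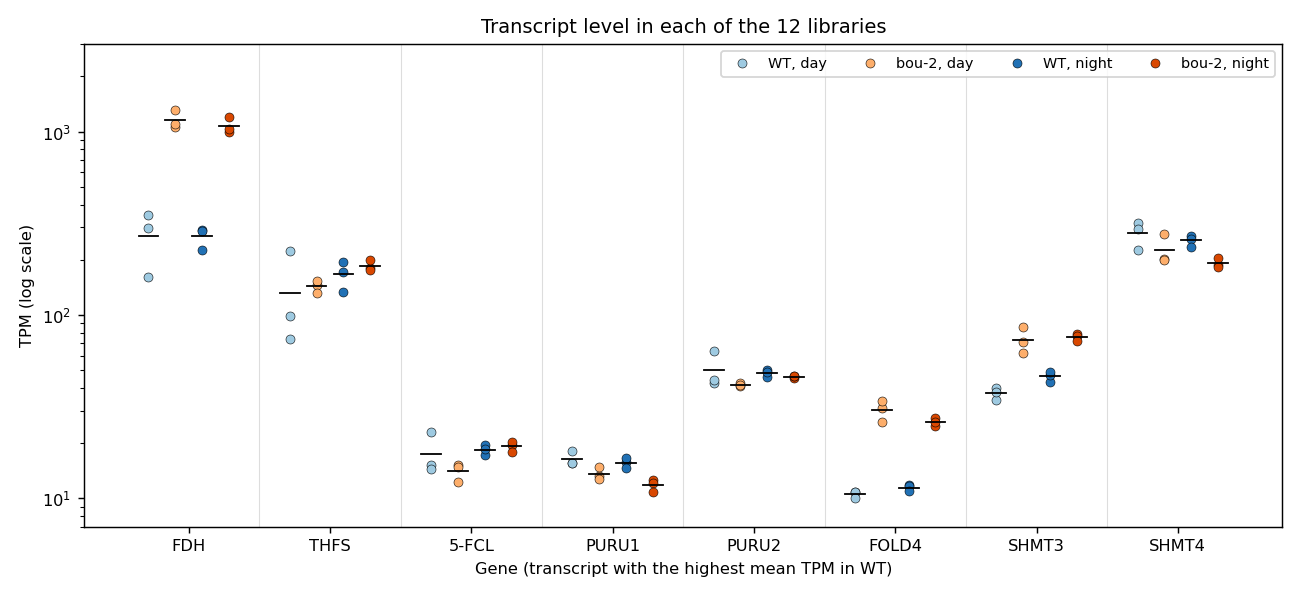
Transcript level in TPM (log axis) of each of the 8 genes in each of the 12 libraries, with points for libraries and black lines for the mean of 3. FDH, FOLD4 and SHMT3 lie higher in all bou-2 libraries than in all WT libraries of the same time, and THFS and 5-FCL overlap at both times.

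FDH (AT5G14780, chr5:4776733-4779526, plus strand, TAIR10.1), the mitochondrial enzyme that oxidises formate, showed the largest change of the 8 genes. Its levels in WT at day were 297, 349 and 161 TPM, and in bou-2 at day 1058, 1092 and 1314 TPM. At night they were 290, 227 and 287 TPM in WT and 992, 1193 and 1030 TPM in bou-2. Every bou-2 library exceeded every WT library of either time. The log2 fold change was 2.02 ± 0.22 (SE) at day, a 4.07-fold rise with an edgeR BH-adjusted p of 0.000204. At night it was 1.89 ± 0.22, a 3.72-fold rise with an edgeR BH-adjusted p of 0.000325. A higher log2 fold change was found for 2.1% of all genes tested at day and for 3.08% at night. By mean TPM, FDH moved from rank 553 in WT to rank 80 in bou-2 among the 20458 genes. Its counts, 5920 to 43854 per library, leave little counting error, and the WT day libraries differed more among themselves (SD 97.0 TPM) than the WT night libraries (SD 35.6 TPM).

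The promoters of the 3 genes that rose are shown because these genes moved together at both times. They are the 250 bases before the RefSeq gene start (TAIR10.1), on the strand of the gene, for FDH at chr5:4776483-4776732 (plus strand), FOLD4 at chr4:261290-261539 (minus strand) and SHMT3 at chr4:15692990-15693239 (minus strand). FOLD4 overlaps AT4G00630 on the same strand, and whether its 250 bases lie inside that gene was not tested. Capitals mark a match to a motif searched on both strands.
FDH: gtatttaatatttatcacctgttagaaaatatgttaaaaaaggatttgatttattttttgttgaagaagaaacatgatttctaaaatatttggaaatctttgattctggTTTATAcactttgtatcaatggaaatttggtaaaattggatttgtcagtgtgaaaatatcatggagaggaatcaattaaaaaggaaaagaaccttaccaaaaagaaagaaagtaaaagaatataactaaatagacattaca
FOLD4: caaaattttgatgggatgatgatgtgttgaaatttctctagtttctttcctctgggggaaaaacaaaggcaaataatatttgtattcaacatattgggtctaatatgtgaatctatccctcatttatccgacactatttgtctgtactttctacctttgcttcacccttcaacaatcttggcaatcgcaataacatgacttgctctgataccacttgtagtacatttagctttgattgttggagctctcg
SHMT3: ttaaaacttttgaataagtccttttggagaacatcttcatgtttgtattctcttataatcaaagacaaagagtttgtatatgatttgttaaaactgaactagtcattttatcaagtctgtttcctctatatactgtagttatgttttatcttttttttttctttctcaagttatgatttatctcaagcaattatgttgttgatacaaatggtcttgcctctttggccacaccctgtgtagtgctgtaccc
The motifs were the G-box CACGTG, the ACGT core, the W-box TTGAC, the TGA box TGACG, the evening element AAAATATCT, the I-box GATAAG, the mitochondrial dysfunction motif CTTGNNNNNCANG, the TATA box TATAAA and the site II element TGGGC. FDH held 1 match, a TATA box on the reverse strand, which 47.3% of 27443 promoters of the same length hold, and FOLD4 and SHMT3 held none of these letters. The 3 promoters shared no searched motif. The mitochondrial dysfunction motif, found in 1.75% of all promoters, and the G-box, found in 6.49%, were in 0 of the 8. Among the other genes, the W-box was in 3 (THFS, PURU2 and SHMT4; 44.9% of all promoters), the site II element in 3 (THFS, PURU2 and SHMT4; 22.7%), and the evening element in PURU1 (2.36%). In THFS a W-box and a TGA box overlap in the same run of letters.

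THFS (AT1G50480, chr1:18701882-18704938, plus strand), which makes formyl-THF from formate, did not pass the test. Its levels were 74.4, 222 and 98.4 TPM in WT at day, 146, 132 and 153 TPM in bou-2 at day, 172, 133 and 194 TPM in WT at night and 180, 200 and 177 TPM in bou-2 at night. The ranges overlapped at both times, and WT day replicate 2 lay above all other WT day and all bou-2 libraries. bou-2 against WT gave 0.03 on the log2 scale (95% confidence interval -0.67 to 0.74) at day and 0.06 (-0.65 to 0.76) at night, so a change of up to about that size in either direction was not detectable. Without WT day replicate 2 the day value became 0.63 with an edgeR BH-adjusted p of 0.0267, whereas it was -0.27 without WT day replicate 1 and -0.09 without WT day replicate 3. THFS at day therefore rests on a single WT library.

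As FDH and THFS both use formate, their levels were set against each other within each library. Whether they draw on the same pool of formate was not tested. FDH TPM per THFS TPM was 3.99, 1.57 and 1.64 in WT at day, 7.25, 8.29 and 8.58 in bou-2 at day, 1.69, 1.70 and 1.48 in WT at night and 5.52, 5.96 and 5.83 in bou-2 at night. The lowest bou-2 library stood above the highest WT library at each time. In an exact two-sided permutation test of the genotype labels within each time (400 labellings), p was 0.005, the smallest this design allows, and 0.008 after BH adjustment over 8 such quantities. The shares and ratios here and below were chosen after the gene levels had been seen. Those that passed restate the rises of FDH, FOLD4 and SHMT3 and are no further support for them. FDH per summed PURU TPM rose from 4.10 ± 1.72 to 20.9 ± 2.06 at day and from 4.19 ± 0.38 to 18.6 ± 1.69 at night (SD, n = 3; exact permutation p = 0.005, adjusted p = 0.008).

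PURU1 (AT4G17360, chr4:9703547-9705664, minus strand), a mitochondrial deformylase that frees formate from formyl-THF, fell at both times. Its levels in WT were 15.5, 15.7 and 18.0 TPM at day and 15.7, 14.6 and 16.7 TPM at night. In bou-2 they were 13.2, 12.7 and 14.8 TPM at day and 12.6, 12.1 and 10.8 TPM at night. The genotypes did not overlap at either time, though the gap at day was narrow. On the log2 scale the change was -0.38 ± 0.12 (SE) at day with an edgeR BH-adjusted p of 0.0371, and -0.51 ± 0.12 at night with an edgeR BH-adjusted p of 0.00956. The day call was lost in 13 of 21 alternatives, with an edgeR BH-adjusted p of up to 0.172, and the night call in 0 of 21. Among the 13 were the omission of WT day replicate 3, any 1 bou-2 day library, WT night replicate 1 or 2 and bou-2 night replicate 1 or 2.

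PURU2 (AT5G47435, chr5:19241672-19243988, plus strand), the more abundant deformylase, was at 63.5, 42.7 and 44.5 TPM in WT and 40.9, 42.3 and 41.7 TPM in bou-2 at day. At night it was at 49.8, 46.1 and 48.8 TPM in WT and 45.2, 46.3 and 46.2 TPM in bou-2. The ranges did not overlap at day by a small margin and overlapped at night. On the log2 scale the difference was -0.36 ± 0.12 (SE) at day (edgeR BH-adjusted p = 0.0506) and -0.18 ± 0.12 at night (edgeR BH-adjusted p = 0.318). Without WT day replicate 2 the day value passed the test at an edgeR BH-adjusted p of 0.0138, and in the fit of the 6 night libraries the night value passed at 0.0384. With all libraries kept, the day value also passed in the DESeq2 Wald test. PURU2 made up 74.9 ± 4.84% of PURU TPM in WT and 75.4 ± 1.58% in bou-2 at day, and 75.5 ± 0.83% and 79.5 ± 1.40% at night (SD, n = 3). That share did not pass the test (exact permutation p = 0.18, adjusted p = 0.24), although without WT day replicate 1 the exact permutation p was 0.01.

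5-FCL (AT5G13050, chr5:4136556-4138792, minus strand), the mitochondrial enzyme that recycles 5-formyl-THF, did not pass the test. It was at 23.0, 15.1 and 14.4 TPM in WT and 12.2, 15.3 and 14.8 TPM in bou-2 at day, and at 19.5, 17.3 and 18.6 TPM and 19.6, 17.9 and 20.2 TPM at night. WT day replicate 1 stood above the other 11 libraries, and the genotypes overlapped at both times. The difference on the log2 scale was -0.39 ± 0.16 (SE) at day (edgeR BH-adjusted p = 0.0998) and -0.05 ± 0.16 at night (edgeR BH-adjusted p = 0.868), with a 95% interval at night of -0.39 to 0.30.

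FOLD4 (AT4G00620, chr4:258987-261289, minus strand), the plastid methylene-THF dehydrogenase and methenyl-THF cyclohydrolase, rose at both times from the lowest level of the 8 genes in WT. Its levels in WT were 10.8, 10.8 and 10.1 TPM at day and 11.8, 11.6 and 10.9 TPM at night. In bou-2 they were 31.1, 26.1 and 34.0 TPM at day and 27.3, 24.7 and 26.0 TPM at night. The WT libraries lay close together, and the lowest bou-2 library held more than 2-fold the highest WT library. The log2 fold change was 1.43 ± 0.08 (SE) at day, 2.69-fold, with an edgeR BH-adjusted p of 8.85e-06. At night it was 1.07 ± 0.08, 2.10-fold, with an edgeR BH-adjusted p of 5.14e-05. FOLD4 had the smallest standard error of the 8 genes and moved from rank 10031 in WT to rank 5543 in bou-2.

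Among its family, FOLD2 was the most abundant member and rose at day from 74.7 ± 7.97 to 105 ± 1.13 TPM (SD, n = 3; log2 fold change 0.39, edgeR BH-adjusted p = 0.0308). That call was lost without WT day replicate 1, bou-2 day replicate 2 or bou-2 day replicate 3, and in the fit of the 6 day libraries, with an edgeR BH-adjusted p of up to 0.128. At night FOLD2 was at 93.4 ± 2.07 and 107 ± 5.85 TPM and did not pass the test, FOLD1 passed at neither time, and FOLD3 was listed at 0 in all 12 libraries. The summed FOLD TPM counts only the most abundant transcript in WT of each gene. FOLD4 took 11.8 ± 1.20% of the summed FOLD TPM in WT and 21.3 ± 1.83% in bou-2 at day, and 10.5 ± 0.30% and 18.9 ± 1.94% at night (SD, n = 3). The share was higher in all 6 bou-2 libraries than in all 6 WT libraries (exact permutation p = 0.005, adjusted p = 0.008).

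SHMT enzymes interconvert serine and glycine and load or unload methylene-THF. SHMT3 (AT4G32520, chr4:15689436-15692989, minus strand), the plastid isoform, was at 34.5, 39.8 and 37.9 TPM in WT and 86.2, 62.0 and 71.3 TPM in bou-2 at day. At night it was at 43.3, 47.1 and 49.1 TPM in WT and 78.9, 77.2 and 72.1 TPM in bou-2. Each bou-2 library was above each WT library of either time. The log2 fold change was 0.87 ± 0.11 (SE) at day, 1.83-fold, with an edgeR BH-adjusted p of 0.000556, and 0.61 ± 0.11 at night, 1.52-fold, with an edgeR BH-adjusted p of 0.00374. The second SHMT3 transcript, AT4G32520.2, was at 7.21, 1.38 and 3.86 TPM in WT and 9.18, 20.7 and 25.0 TPM in bou-2 at day. It rose at day by 2.07 ± 0.55 on the log2 scale (edgeR BH-adjusted p = 0.0205) and gave 0.54 at night (edgeR BH-adjusted p = 0.525). As a share of both SHMT3 transcripts it took 9.95 ± 6.99% in WT and 20.2 ± 9.18% in bou-2 at day, and 11.97 ± 4.97% and 11.5 ± 4.17% at night (SD, n = 3), with overlapping ranges at both times, and the share did not pass the test (exact permutation p = 0.27, adjusted p = 0.309). The day call of AT4G32520.2 was lost without WT day replicate 3, bou-2 day replicate 2 or bou-2 day replicate 3 and in the fit of the 6 day libraries, with an edgeR BH-adjusted p of up to 0.0676. How reads are split between both SHMT3 transcripts is an estimate by kallisto, and the uncertainty of that split did not enter the tests.

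SHMT4 (AT4G13930, chr4:8047692-8050157, minus strand), the cytosolic isoform, was among the most abundant of the 8 genes. It was at 316, 226 and 292 TPM in WT and 275, 202 and 199 TPM in bou-2 at day, and at 270, 260 and 235 TPM and 187, 203 and 183 TPM at night. The genotypes overlapped at day and were separate at night. SHMT4 gave a log2 fold change of -0.39 ± 0.15 (SE) at day (edgeR BH-adjusted p = 0.0853) and -0.52 ± 0.15 at night (edgeR BH-adjusted p = 0.0304). The night call was lost in both limma fits on TPM and without WT night replicate 1, WT night replicate 2 or any one of bou-2 night replicates 1, 2 and 3, with an adjusted p (limma or edgeR) of up to 0.0958. The day value passed without WT day replicate 2 (edgeR BH-adjusted p = 0.0228) and without bou-2 day replicate 1 (edgeR BH-adjusted p = 0.0395). With all libraries kept, the day value also passed in the DESeq2 Wald test.

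**Figure D2:**
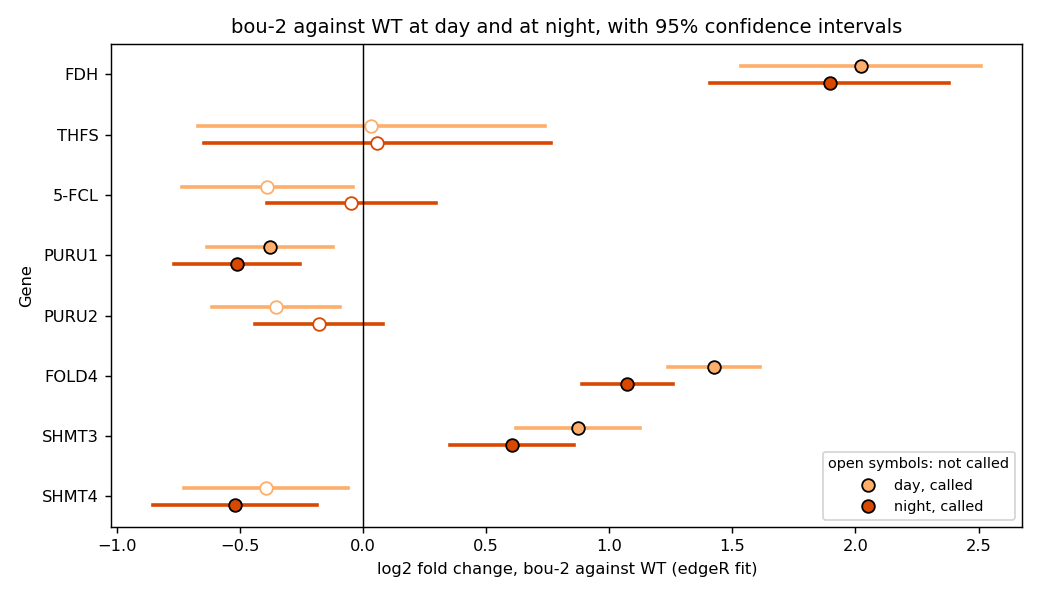
Log2 fold change of bou-2 against WT for each of the 8 genes at day and at night, from the edgeR fit, with 95% confidence intervals as lines and filled symbols for genes called. FDH, FOLD4 and SHMT3 stand to the right of 0 at both times, and PURU1 and SHMT4, called lower at night, lie at -0.51 and -0.52.

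With SHMT3 up and SHMT4 lower or not called, SHMT3 took 9.86, 14.97 and 11.5% of their summed TPM in WT at day and 23.9, 23.5 and 26.4% in bou-2 at day. At night it took 13.8, 15.3 and 17.3% in WT and 29.6, 27.5 and 28.2% in bou-2. The 6 bou-2 libraries were all above the 6 WT libraries (exact permutation p = 0.005, adjusted p = 0.008). These sums over SHMT genes count only the most abundant transcript in WT of each gene, so AT4G32520.2 is left out. Of all 7 SHMT genes together, SHMT3 made up 1.76 ± 0.28% in WT and 4.18 ± 0.45% in bou-2 at day, and 1.77 ± 0.06% and 3.98 ± 0.10% at night (SD, n = 3; exact permutation p = 0.005, adjusted p = 0.008). SHMT4 made up 13.04 ± 2.87% of the family in WT and 12.8 ± 1.65% in bou-2 at day, and 9.71 ± 1.01% and 10.01 ± 0.28% at night (SD, n = 3), and that share did not pass the test (exact permutation p = 0.93, adjusted p = 0.93). Most of the family's TPM came from SHMT1, the main mitochondrial isoform of photorespiration, at 1757 ± 357 TPM in WT and 1368 ± 47.6 TPM in bou-2 at day. At day its TPM ranges were lower in bou-2 without overlap, but it was not called (log2 fold change -0.46, edgeR BH-adjusted p = 0.0511). SHMT1 fell at night from 2203 ± 96.8 to 1500 ± 62.8 TPM (SD, n = 3; log2 fold change -0.66, edgeR BH-adjusted p = 0.0108), the only call among the 5 other SHMT genes in bou-2 against WT. A difference of its bou-2 effect between day and night did not pass the interaction test (edgeR BH-adjusted p = 0.721).

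**Figure D3:**
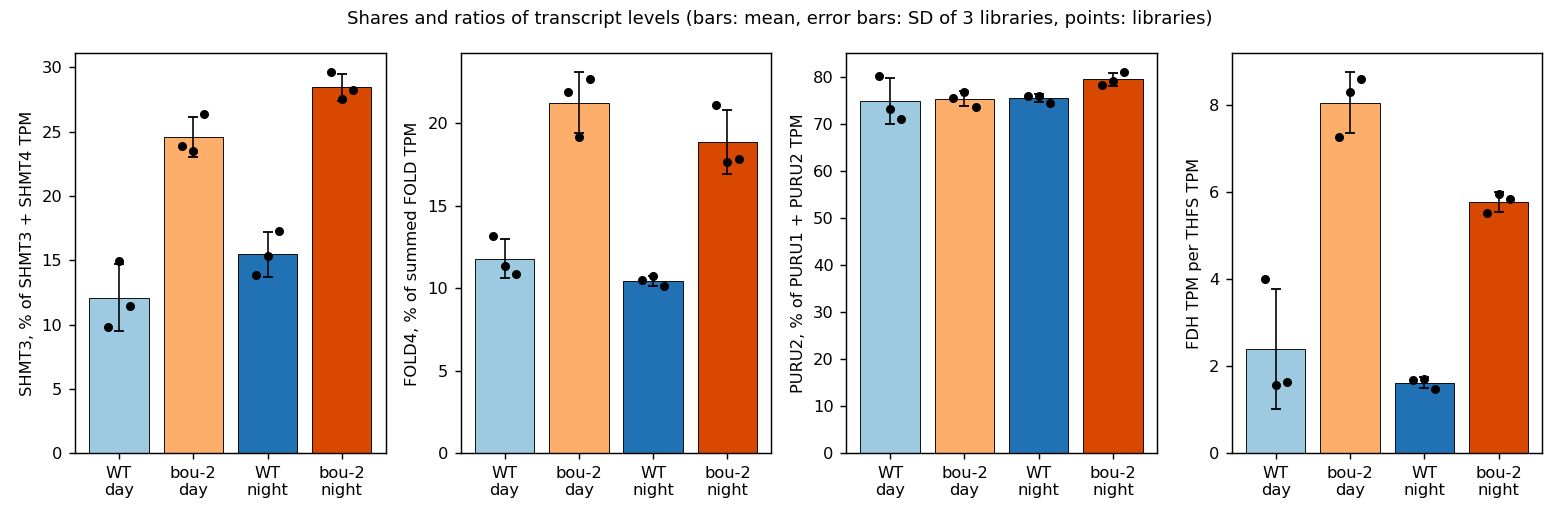
From left, SHMT3 as a percent of SHMT3 plus SHMT4 TPM, FOLD4 as a percent of the summed TPM of 4 FOLD genes, PURU2 as a percent of PURU1 plus PURU2 TPM, and FDH TPM per THFS TPM. Bars are means, error bars SD over 3 libraries and points libraries. Every panel but that of PURU2 is higher in all bou-2 libraries than in the WT libraries of the same time, and the PURU2 share, which overlaps at day, lies between 71.2 and 81.0% in all 12 libraries.

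The order of the 8 genes by level changed mainly through FDH, SHMT3 and FOLD4. In WT, SHMT4 and FDH were the highest at both times and their ranges overlapped, so they could not be ordered. At day the WT range of FDH also overlapped that of THFS, the next gene. In bou-2, FDH was first at both times with its range apart from that of SHMT4, the next gene. SHMT3 stood below PURU2 in WT and above it in bou-2 at both times, although both ranges overlapped in WT at night. FOLD4 was the last in WT, with its range below that of PURU1, and the sixth in bou-2, where its range lay above that of 5-FCL.

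Between day and night few of the 8 genes were called. In WT, 0 of 8 were called in the edgeR test, where 5.58% of all genes were called higher and 3.88% lower at day, and 0 had an unadjusted p under 0.05. DESeq2 and limma on TPM called 0 as well. Without WT day replicate 2, THFS was lower at day by 0.80 on the log2 scale (edgeR BH-adjusted p = 0.0177), against -0.21 with it. In bou-2, FOLD4 alone was called, higher at day by 0.36 ± 0.08 (SE) on the log2 scale (edgeR BH-adjusted p = 0.0165), where 7.68% of all genes were called higher and 7.69% lower. This call was lost in both limma fits on TPM, without bou-2 day replicate 3 and without bou-2 night replicate 2 (adjusted p, limma or edgeR, up to 0.188). The TPM ranges of FOLD4 in bou-2 overlapped between day and night. When the counts of all transcripts of a gene were summed, PURU1 and SHMT3 were called higher at day in bou-2 as well. Whether the bou-2 effect itself differed between the times was tested as an interaction, where 1.18% of all genes were called and 0 of the 8 in edgeR, DESeq2 or limma. FOLD4 came nearest, with a day effect larger by 0.35 ± 0.12 (SE, unadjusted p = 0.0126, edgeR BH-adjusted p = 0.195), and it was the only one with an unadjusted p under 0.05. With summed counts, SHMT3 passed the interaction test in edgeR (BH-adjusted p = 0.0427).

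The genes around this set were read from lists chosen by function. Of 17 tested genes of folate synthesis, glutamylation and transport, 3 rose and 1 fell at day, and 2 rose and 2 fell at night. Of all genes tested, 14.8% were called higher at each time, 12.8% were called lower at day and 12.2% were called lower at night. FOLB2, a dihydroneopterin aldolase of the pterin branch, rose by 0.86 ± 0.15 and 0.88 ± 0.16 on the log2 scale (edgeR BH-adjusted p = 0.003 and 0.00272). GGH3, a gamma-glutamyl hydrolase, rose by 0.74 at day. ADCL, which completes the p-aminobenzoate branch, fell by 0.32 at day and 0.59 at night, and FPGS3, a folylpolyglutamate synthetase, fell by 0.77 at night. FBT, a folate transporter, rose by 0.25 and 0.28. The median of the list was -0.03 at day and -0.12 at night. The day call of ADCL was lost in 6 of 21 alternatives, WT day replicate 3, bou-2 day replicate 2 or bou-2 day replicate 3 left out among them. FBT lost its day call in 11, with WT day replicate 1 or 2 or any 1 bou-2 library left out among them, and its night call without WT night replicate 1 or 3 or bou-2 night replicate 2 or 3. The largest edgeR BH-adjusted p in these alternatives was 0.153.

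Of the 8 genes that use one-carbon folates, 2 rose at day, and 2 rose and 1 fell at night, beside 14.8% of all genes called higher at either time and 12.2% called lower at night. ATIC, which takes formyl-THF into purines, rose by 0.80 ± 0.08 (SE) on the log2 scale at day and 1.00 ± 0.09 at night (edgeR BH-adjusted p = 0.000181 and 8.58e-05). FMT, the formyltransferase of the initiator methionyl-tRNA, rose by 0.64 at day, and MS3, a methionine synthase, by 0.58 at night. KPHMT1, a ketopantoate hydroxymethyltransferase, fell by 0.47 at night, a call lost in 13 of 21 alternatives, the omission of any 1 bou-2 library or WT night library among them (adjusted p, limma or edgeR, up to 0.144). Of the 6 genes of the S-adenosylmethionine cycle, 3 fell at day and 2 at night, beside 12.8% and 12.2% of all genes. SAHH2, an S-adenosylhomocysteine hydrolase, fell by 1.02 ± 0.16 at day and 1.31 ± 0.16 at night (edgeR BH-adjusted p = 0.00127 and 0.000391). SAMS3, an S-adenosylmethionine synthetase, fell by 0.65 and 0.54, and MAT3 of the same family by 0.54 at day, a call lost without bou-2 day replicate 2 and in the fit of the 6 day libraries. Neither GSNOR nor SFGH, the pair that turns formaldehyde into formate, passed the edgeR test at either time. SFGH came nearest, with 0.34 at day (edgeR BH-adjusted p = 0.0707). At day 1 of the 8 glycine decarboxylase subunits tested was called higher and 1 lower, and at night these numbers were 1 and 4, and the list too stands beside the same shares of all genes. The day-higher call, of GLDP1, was lost in 13 of 21 alternatives, the omission of any 1 night library, of WT day replicates 1 and 2 in turn and of bou-2 day replicates 1 and 3 in turn among them. Of the 4 night-lower calls, those of GLDP2, GLDT and GDCH1 were each lost without any 1 of the 6 night libraries (edgeR BH-adjusted p up to 0.159), and that of GDCH3 in 0 of 21 alternatives.

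**Figure D4:**
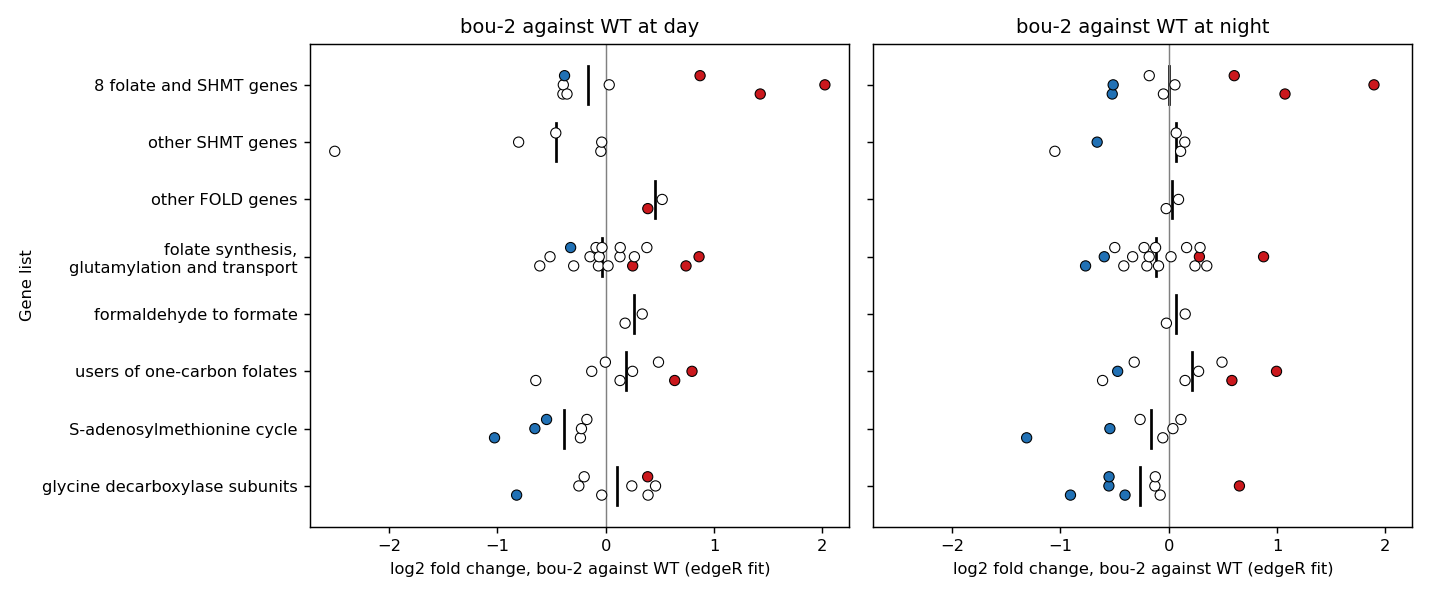
Log2 fold change of bou-2 against WT at day (left) and night (right) for the 8 genes and the lists around them, with 1 point a gene, red for called higher, blue for called lower, open for not called and a black line for the list median. The 8 genes spread from -0.39 to 2.02 at day, and the S-adenosylmethionine cycle genes called were all lower.

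The genes with the profile most like that of FDH over the 12 libraries were found by the mean absolute difference of centred log2(TPM + 1) among 14228 others with a mean of at least 5 TPM. They were AT2G02390 (GSTZ1, a zeta-class glutathione transferase; 0.127), AT4G33540 (0.151) and AT1G70810 (0.171). GSTZ1 rose from 36.3 to 174 TPM at day and from 39.4 to 160 TPM at night. AT4G33540 rose from 29.9 to 144 TPM at day and AT1G70810 from 36.6 to 169 TPM. For PURU1, the only one of the 8 genes called lower at both times, the nearest were AT3G11945 (0.0582), AT4G30950 (FAD6, a plastid fatty acid desaturase; 0.0594) and AT2G26730 (0.0616). At night AT3G11945 was at 76.2 TPM in WT and 57.2 TPM in bou-2, and FAD6 at 257.0 and 195 TPM. At day AT3G11945, FAD6 and AT2G26730 were not called in bou-2 against WT (edgeR BH-adjusted p = 0.0711, 0.0561 and 0.247). The likeness is a description over the same 12 libraries by which these genes were picked, so their rise or fall follows from the choice.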

How the data were processed

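RNA from leaves (whole rosettes in the study's methods) was sequenced in 12 libraries. The authors quantified the reads against TAIR10 transcripts with kallisto 0.43.0 and deposited its estimated counts, which are not normalized, and its TPM. The deposited log2 ratios and q-values (from p-values of sleuth 0.28.1) and the group mean and SD columns hold the authors' comparisons and summaries, and were not used.

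Of 41415 lines 23 repeats were dropped. Rounded estimated counts were tested per transcript in R 4.3.3 with edgeR 4.0.16 (TMM, filterByExpr with a minimum count of 10, 26153 transcripts kept, 1 mean per group over 12 libraries, quasi-likelihood test, BH adjustment over all transcripts tested, threshold 0.05). Each gene stands for its most abundant transcript by mean TPM over the 6 WT libraries, and all 8 genes reported passed the filter. The dispersion shared by all transcripts was 0.0807. Fold changes are from that fit and levels are TPM. Depth is given in the report, and the p-values measure the spread between samples that the design text calls biological triplicates. Shares and ratios were tested by exact permutation. Alternatives used DESeq2 1.42.0, limma 3.58.1, other filters and single libraries left out. The scripts were tested on simulated data.

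The genes and the lists were chosen with earlier results of these data known. From each list up to 4 called genes a contrast with the largest absolute log2 fold change were named, apart from the glycine decarboxylase list, given as counts and lost calls. SFGH and the second transcript of SHMT3 were named after their values were seen. Nearest profiles were taken for the reported genes with the largest rise and the largest fall among those called at both times (FDH, and PURU1 as the only gene called lower at both). Positions, promoters and transcript sequences are from RefSeq (TAIR10.1). Of the set of 10 genes, 2 are not reported here, nor is 1 gene of the lists, and counts and medians over the set or a list leave them out.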

Additional observations from a re-analysis of the deposited data

How the results depend on the processing

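Of the 21 alternatives for each genotype contrast, FDH, FOLD4 and SHMT3 kept their direction and call in all at both times. The number of the 8 genes called lower at day was 3 with the DESeq2 Wald test and 0 with limma on TPM at either pseudocount, no filter on low counts, only the 6 libraries compared or a replicate block, against 1, and 0 to 3 when single libraries were left out. At night it was 1 with limma on TPM at either pseudocount and 3 with only the 6 libraries compared, against 2, and 1 to 2 with single libraries left out. For day against night, 0 to 1 genes were lower in WT with single libraries left out, against 0. In bou-2, where 1 was higher at day, limma on TPM gave 0 with either pseudocount, summed counts gave 3 and leaving out single libraries 0 to 2. The interaction gave 1 higher gene with summed counts, against 0. Values that were near 0 and not called changed direction in some alternatives. With single libraries left out, THFS ran from -0.27 to 0.63 at day, from -0.078 to 0.16 at night and from -0.80 to 0.10 for day against night in WT, and SHMT3 ran from -0.0103 to 0.15 for day against night in bou-2. In limma on log2(TPM + 1) and log2(TPM + 0.1), 5-FCL gave 0.0558 and 0.0585 at night, and SHMT3 gave -0.067 and -0.0679 for day against night in bou-2. The cause was not tested.

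The TPM scale moved the median log2 fold change of all genes by over 0.1 for day against night (from 0.01 to -0.10 in WT and from -0.01 to -0.12 in bou-2) and, with a pseudocount of 0.1, for bou-2 against WT (from -0.04 to 0.06 at day and from 0.02 to 0.13 at night). In limma on log2(TPM + 1), 69.7% of genes called at day and 67.8% at night were higher in bou-2, against 53.5% and 54.7% in edgeR. For day against night it was 31.2% in WT and 30.02% in bou-2, against 59.0% and 50.0%. With only the 6 libraries compared at day, 1452 genes were higher and 822 lower over all genes, against 3021 and 2627.

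Same-numbered libraries did not deviate together (r from -0.12 to 0.07 over 18 pairs, 0 over 0.1), so no pairing by number was detected. With a replicate block PURU1 at day lost its call (-0.38, edgeR BH-adjusted p = 0.065), and no other call among the 8 genes changed. Among the list genes, FBT at day and KPHMT1, GLDP2, GLDT and GDCH1 at night lost theirs, as did GLDP1 at day.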
